A study of Sus scrofa with 20 samples.

Results

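The tags described here were abundant in longissimus muscle of both pig breeds at 35 days post coitum (dpc), and by 49 dpc were below 0.25 of that level in Landrace (LR) but still above 0.67 of it in Lantang (LT). A tag is a 21-base sequence that begins with a CATG site of the restriction enzyme NlaIII. That site is ideally the one nearest the 3′ end of a polyadenylated transcript, and the count then follows the abundance of that transcript. By the study's account, alternative splicing or incomplete digestion can place a tag at a site further from that end. Levels are given as TPM, the copies of a tag scaled to 1000000 clean tags of its library. Members were chosen from the values at 35 and 49 dpc: at least 20 TPM at 35 dpc in both breeds, a ratio of 49 to 35 dpc below 0.25 in LR and above 0.67 in LT, and no further CATG inside the tag. The rule found 757 tags of 801159 distinct tags, or of the 5495 tags that passed the 35 dpc minimum. The mirror set, with the breeds exchanged, held 37 tags. Because these libraries chose the members, the values at 35 and 49 dpc are a description only. So are ratios of later stages to 35 dpc, which share a value that chose the members. With TPM rescaled by TMM (trimmed mean of M values) effective library sizes instead of total clean tags, the same rule found 258 members and 18 mirror tags.

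The study followed longissimus muscle, a back muscle, through growth in Landrace, a lean Western breed, and Lantang, a Chinese breed. It covered 35, 49, 63, 77 and 91 dpc and 2, 28, 90, 120 and 180 days postnatal (dpn), with 1 library for each breed and stage, 20 in all. Each library was made from RNA pooled in equal amounts from 3 pigs, so the spread between animals was not measured and no stage has a replicate. All sows and boars were purebred, no treatment was applied, and only male fetuses were sampled; the later boars had been castrated. In bulk muscle, fewer cells of a type and less RNA per cell cannot be told apart.

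Fetal muscle forms its fibres in successive waves: primary fibres appear first, and secondary fibres then form along them. Transcripts of proliferating precursor cells and of early differentiation are generally lost as the fibres mature. A set of transcripts that left one breed early and the other late would bear on when these steps take place in each breed. The tags could not be matched to genes here, since no transcript sequence was available to match them to, and they are therefore reported by sequence; the check of the tissue against muscle markers was not possible for the same reason.

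Libraries held between 2157111 and 5322022 clean tags. The deposited files listed no tag with fewer than 2 copies, so a value of 0 means at most 1 copy. The breed labels were checked with 20 pairs of tags that differ by 1 base and were fixed for opposite breeds at 2, 28 and 90 dpn. In the libraries that did not choose the pairs, the LR form made up 93.9% to 99.8% of the pair counts in LR at 35 to 91 dpc and at 120 dpn, and 0% to 5.82% in LT. The highest LT share was that of LT 35 dpc, which took part in choosing the members, and the next was 1.67% at 91 dpc. The library labelled LR 180 dpn held 73.3% of the LR form (95% Wilson interval 71.9 to 74.7), so it also carried LT-type tags; it enters no main test. Intervals cover counting error only.

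Examples from each class of fall in LT before birth are shown first, picked by their LT level at 49 dpc. How many members fell is given by the counts of the classes, further below, and not by these examples. Capitals mark the NlaIII site. Tags Da to Dc are the members with the highest LT level at 49 dpc among those first below 0.25 of the 35 dpc level at 63 dpc, Dd to Df among those first below it at 77 dpc, Dg and Dh at 91 dpc, and Dj to Dl among those that stayed above it in every fetal LT library.
Da: CATGtgatgggggcacaggca
Db: CATGctaataagagtacgtcc
Dc: CATGtgtggtagcgtaggaat
Dd: CATGtgtgtgggagagaggcg
De: CATGttggcaaagtgtttgat
Df: CATGtcagtttttctgagatt
Dg: CATGgcctgctgcctgttgta
Dh: CATGtgggagaacagtggcag
Dj: CATGtgaattttctaaaggtg
Dk: CATGaagctttgagtgaagcc
Dl: CATGatacatattatgtagtc

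Tags Dm to Do had the smallest p among the members in the comparison of the breeds at 63 to 91 dpc, and Dp and Dq the smallest p among them in the comparison of LT before and after birth. Mb and Mc are mirror tags with high LR levels.
Dm: CATGtcactaatagaatgtct
Dn: CATGgggcgtcatcgttcaaa
Do: CATGacccacttcaacaaggg
Dp: CATGattattccttcaatgta
Dq: CATGacccttcttgcagtttc
Mb: CATGaccttatagcaaccata
Mc: CATGtttttttttaagctttt

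Few members fell below 0.25 of their 35 dpc level in LT before birth, although fewer members stayed above 0.67 of it at all 3 later fetal stages (365) than did not. Of the 757 members, 14 were first below 0.25 of their LT 35 dpc level at 63 dpc, 6 at 77 dpc and 11 at 91 dpc, and 726 (95.9%) were above it in all 3 libraries. In single libraries, 14 members were below it at 63 dpc, 7 at 77 dpc and 25 at 91 dpc, against 9.43%, 7.08% and 10.8% of all 5495 tags of at least 20 TPM. The 31 members that fell below it, 4.10%, compare with 14.4% of these tags. Among the 3483 of those tags that were also above 0.67 in LT at 49 dpc, the share was 3.76%. The median ratio to LT 35 dpc over the members was 1.21 at 49 dpc, 0.794 at 63 dpc, 0.854 at 77 dpc and 0.807 at 91 dpc. At all 3 later fetal stages 365 members (48.2%) stayed above 0.67, against 33.1% of all tags of at least 20 TPM. Among the 3483 tags also above 0.67 in LT at 49 dpc that share was 49.6%, close to that of the members. With a fold of 0.5 in place of 0.25, 137 members were already below it at 63 dpc.

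In LR the members stayed low through the rest of fetal life. The share below 0.25 of LR 35 dpc was 58.1% at 63 dpc, 69.9% at 77 dpc and 71.6% at 91 dpc, against 12.4%, 16.9% and 18.96% of all tags of at least 20 TPM. The highest of the 3 later fetal LR values was below 0.25 of LR 35 dpc for 378 members, between 0.25 and 0.67 for 367, and above 0.67 for 12. When 63, 77 or 91 dpc took the place of 49 dpc in the rule, 297, 407 and 362 tags met it, of which 273, 334 and 296 were members. A core of 164 tags met the rule at 49, 63, 77 and 91 dpc alike. These shares and overlaps all rest on the 35 dpc values that chose the members, so part of the excess is built in. At 35 dpc the median log2 of LT over LR, with 0.5 TPM added, was -0.45 over the members. Over all tags of at least 20 TPM it was 0.04.

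The median level shows the same course. In LR it was 48.7 TPM at 35 dpc, 6.94 at 49 dpc, 10.8 at 63 dpc, 8.93 at 77 dpc and 8.78 at 91 dpc. In LT it was 33.2, 45.7, 29.8, 31.6 and 29.1 TPM at the same stages. From 2 to 90 dpn the breeds came closer together and their order changed, with medians of 11.6 and 10.6 TPM in LR and LT at 2 dpn, 6.19 and 3.32 at 28 dpn and 5.56 and 7.34 at 90 dpn. Together the members were 7.15% of all clean tags in LR at 35 dpc and 1.15% at 49 dpc, and 4.86% and 7.75% in LT.

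**Figure D1:**
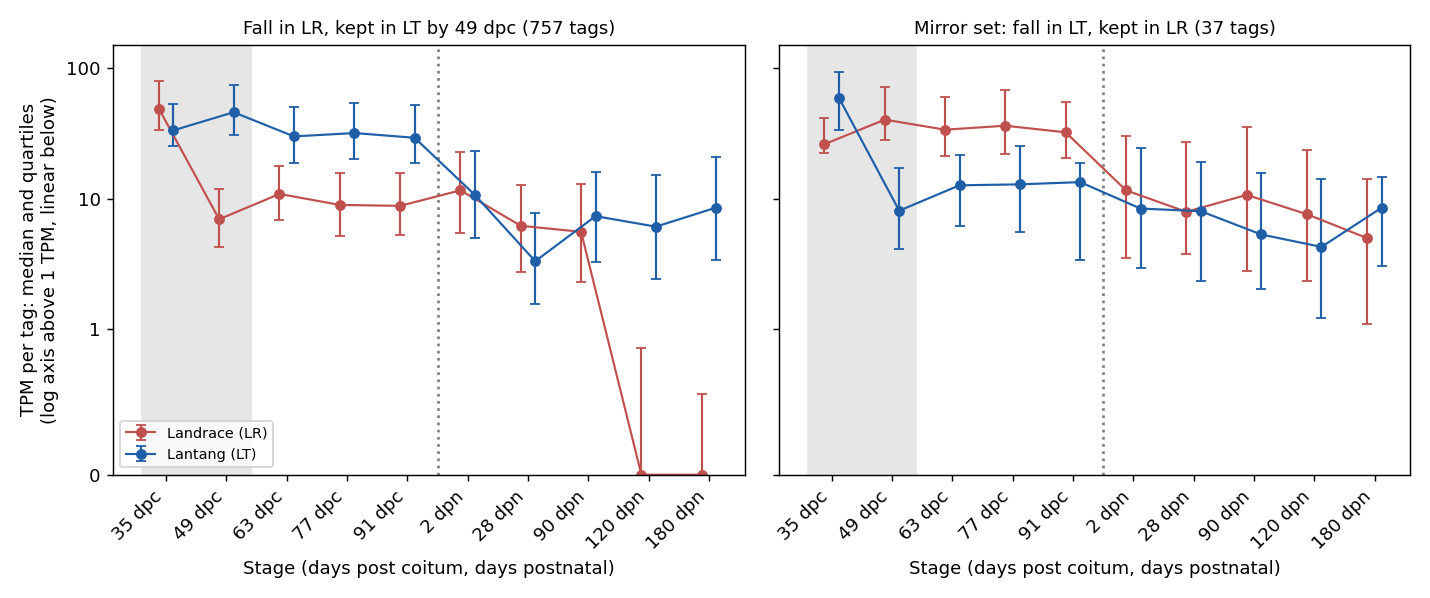
Median TPM with quartiles over the 757 members (left) and the 37 mirror tags (right) in each library, LR in red and LT in blue; the axis is logarithmic above 1 TPM and linear below. The shaded stages chose the tags and the dotted line marks birth. LT medians of the members stay between 29.1 and 31.6 TPM from 63 to 91 dpc while those of LR lie between 8.78 and 10.8 TPM, and the breeds meet from 2 to 90 dpn.

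The tags that represent the members falling in fetal LT differed in how completely they fell. Da stood at 301, 36.5, 45.5, 37.4 and 21.6 TPM in LR from 35 to 91 dpc, and at 253, 178, 51.6, 77.2 and 51.3 TPM in LT. Its LT level at 63 dpc was 0.204 of that at 35 dpc, and it was back above 0.25 at 77 dpc. Dc was listed at 61.2 and 66.1 TPM in LT at 35 and 49 dpc, at 0 at 63 and 91 dpc and at 17.1 TPM at 77 dpc, so its fall at 63 dpc was not held at the next stage. Dd went from 63.2 TPM at 49 dpc to 29.8, 3.21 and 1.13 TPM at 63, 77 and 91 dpc in LT, and Dh from 132 to 144, 32.3 and 17.9 TPM. At 91 dpc Dd stood at 0.0311 and Dh at 0.138 of LT 35 dpc. Db stood at 94.1, 80.3, 13.8, 37.6 and 20.3 TPM in LT from 35 to 91 dpc, De at 27.4, 26.0, 7.65, 3.63 and 3.95 TPM, and Df at 26.7, 23.8, 9.56, 6.63 and 5.64 TPM. Db was higher again after its first low value, and De and Df started near the minimum level of the rule. Dg passed the limit only narrowly, at 0.227 of LT 35 dpc at 91 dpc.

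The members most abundant in LT at 49 dpc stayed above 0.25 of their 35 dpc level until birth. Dj stood at 1691, 377, 560, 408 and 591 TPM in LR from 35 to 91 dpc and at 707, 3935, 1273, 2355 and 982 TPM in LT. Dk stood at 2882, 559, 1051, 1035 and 771 TPM in LR and at 2464, 3409, 1642, 2013 and 2218 TPM in LT. For both tags every LT value from 63 to 91 dpc was above every LR value of those stages. Dl stood at 1931, 422, 604, 669 and 824 TPM in LR and at 1152, 2587, 2688, 1950 and 2772 TPM in LT, and reached 4630 TPM in LR at 2 dpn, above the LT value of 3081 TPM.

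**Figure D2:**
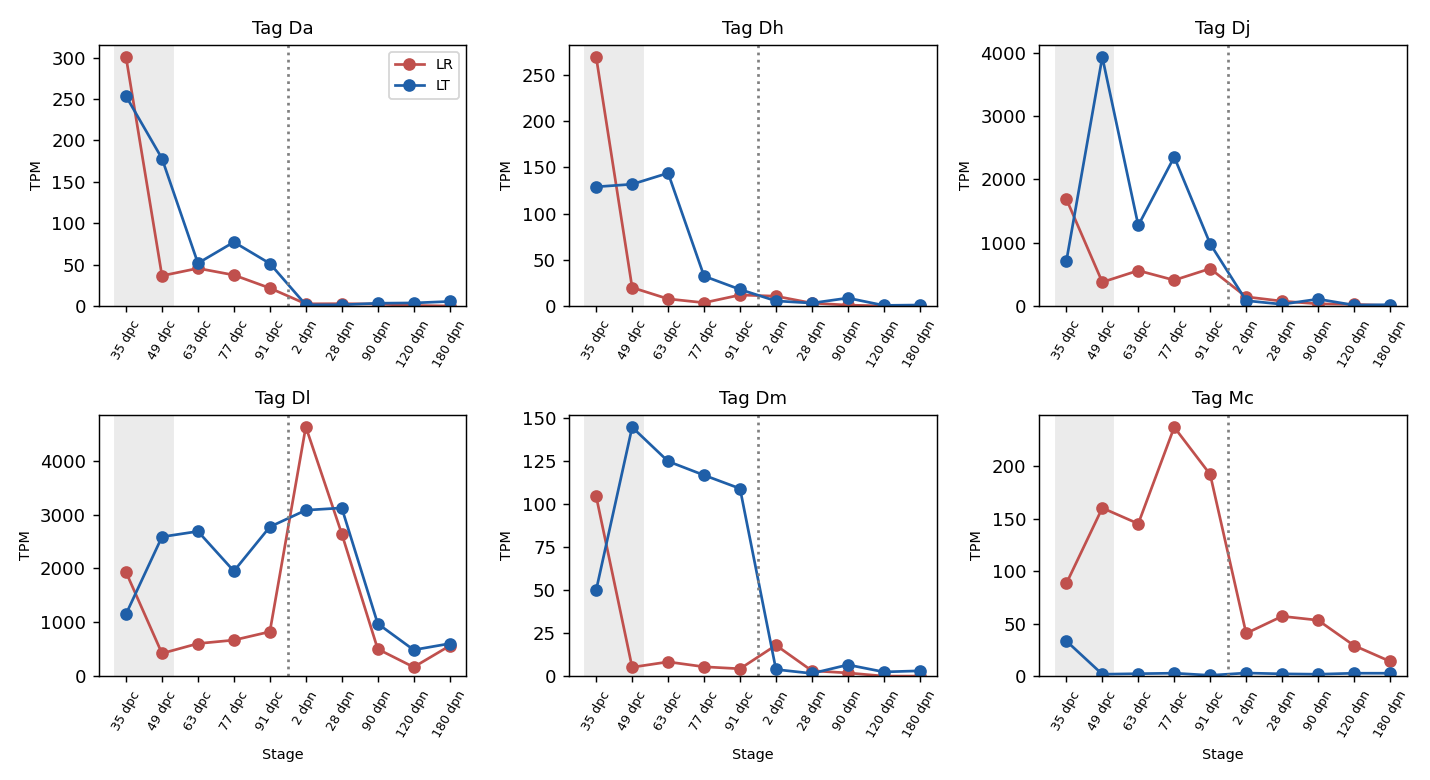
TPM in every library for 5 members and the mirror tag Mc, LR in red and LT in blue, on linear axes that start at 0; shading marks the stages that chose the tags and the dotted line birth. Da falls in LT at 63 dpc and Dh after 63 dpc, Dj and Dm stay high in LT until birth, Dl is high in both breeds at 2 dpn, and Mc stays at 2.94 TPM or less in LT after 35 dpc.

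The breeds were then compared in the fetal libraries that the rule did not use, 63, 77 and 91 dpc, with edgeR's quasi-likelihood test over all tags and the stage as a block. This asked whether the difference seen at 49 dpc persisted. At these stages the LR and LT libraries also differed in tag composition, as given further below. The part of that in this comparison was not tested. Stages stood in for replicates, so the tests measure the spread of the breed difference across stages and not between animals. The filter on low counts kept 754 of the 757 members. Of the 757 members, 607 (80.2%) were higher in LT and none lower, against 23.4% of all 52931 tags tested and 19.8% of the tested tags of at least 20 TPM that were called higher in LT. The fitted log2 fold change was above 0 for 746 of the 754 tested, with a median of 1.496 and quartiles of 1.02 and 2.05, while the median over all tags tested was 0.06. The LT values of all 3 stages lay above all 3 LR values for 679 members (89.7%), against 27.9% of the tags of at least 20 TPM. Without the 77 dpc libraries no tag passed, member or not, by edgeR's adjusted p, although 500 of 754 members then had an unadjusted p under 0.05, against 17553 of all 57658 tags, and 744 members a positive fold change. DESeq2 called 553 members higher in LT and none lower, against 9904 and 7461 of all 52931 tags tested.

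Dm had the smallest p among the members in this comparison. It stood at 125.02, 117 and 109 TPM in LT at 63, 77 and 91 dpc and at 8.29, 5.41 and 4.27 TPM in LR, a log2 fold change of 4.16 ± 0.27 (SE) with an edgeR adjusted p of 0.00382. Dn stood at 58.5, 74.2 and 53.6 TPM in LT and at 3.61, 3.52 and 3.56 TPM in LR, a log2 fold change of 3.93 ± 0.27 with the same adjusted p from edgeR. Do stood at 70.0, 49.0 and 29.3 TPM in LT and at 6.16, 2.98 and 2.37 TPM in LR. For all 3 tags the breeds did not overlap at these stages. Of the tags that fell in fetal LT, Dg and Dh were called higher in LT from 63 to 91 dpc by edgeR (adjusted p = 0.00716 and 0.0307). Without the 63 dpc libraries Dh did not pass (edgeR adjusted p = 0.114), and without those of 77 dpc neither did (0.117 and 0.228). Da, with a log2 fold change of 0.66 ± 0.27 and an edgeR adjusted p of 0.0852, was not. Nor were Db, Dd, De and Df (edgeR adjusted p = 0.309, 0.485, 0.0946 and 0.548), and Dc did not pass the filter on low counts.

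**Figure D3:**
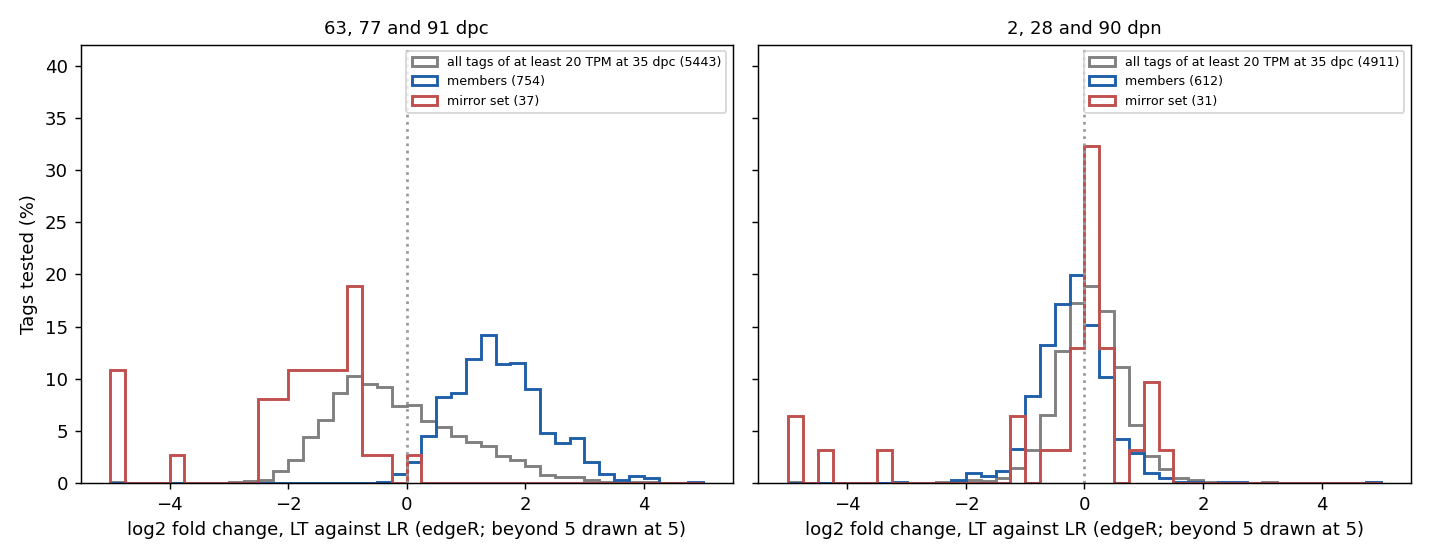
Distribution of edgeR log2 fold changes of LT against LR, as the percent of tags tested, for the members (blue), the mirror set (red) and all tags of at least 20 TPM at 35 dpc in both breeds (grey). At 63 to 91 dpc (left) the members have a median of 1.496 and the mirror set one of -1.62, and at 2 to 90 dpn (right) the medians are -0.19 and 0.14; values beyond 5 are drawn at 5.

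At 2 to 90 dpn the breed difference of the members was not found. Of the 757 members, 612 passed the filter on low counts at 2, 28 and 90 dpn and 1 was called, higher in LT, by edgeR, with 11 at an unadjusted p under 0.05. Of all 27369 tags tested, 0.742% were called higher and 0.87% lower in LT, and of the tested tags of at least 20 TPM 0.0814% in each direction. The median log2 fold change over the members tested was -0.19. It joins stages of opposite sign: with 0.5 TPM added, the members' median log2 of LT over LR was -0.07 at 2 dpn, -0.60 at 28 dpn and 0.40 at 90 dpn. Over all tags of at least 20 TPM these medians were 0.36, 0.08 and -0.10. The LT values lay above all LR values for 10 members (1.32%) and below them for 15 (1.98%), against 3.68% and 1.47% of the tags of at least 20 TPM. At 120 and 180 dpn, which entered no main test, members were higher in LT than in LR by a median of 2.85 and 3.57 on the log2 scale, with 0.5 TPM added to each level, against 0.996 and 1.76 over all tags of at least 20 TPM. In LR 468 and 499 members (61.8% and 65.9%) were listed at 0 at these stages, against 29.2% and 31.7% of those tags. In those 2 LR libraries 49.8% and 57.2% of the members that had at least 5 TPM in LT were listed at 0, against 16.7% and 19.2% of the other tags of at least 20 TPM at 35 dpc.

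In LT the members were mostly lower after birth than before it. Of the 726 members not fallen before birth, 291 (40.1%) were below 0.25 of LT 35 dpc at 2 dpn, a further 320 (44.1%) first at 28 dpn and 15 (2.07%) first at 90 dpn, and 100 (13.8%) were below it at none of these stages. Over the 4702 tags of at least 20 TPM not fallen before birth, these shares were 20.4%, 24.1%, 16.0% and 39.5%. Among the 3352 of them also above 0.67 in LT at 49 dpc, they were 20.9%, 24.8%, 12.7% and 41.6%. At 28 dpn 637 of the 757 members were below that level in LT, against 48.7% of all tags of at least 20 TPM, and at 90 dpn 458 were, against 55.3%. At 2 dpn it was 319 members, against 27.5%.

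With edgeR, LT at 2, 28 and 90 dpn was compared with LT at 63, 77 and 91 dpc. Of the 757 members, 752 passed the filter, 167 (22.1%) fell after birth and 1 rose, against 6.15% and 4.58% of all 48834 tags tested, and 8.03% of the tested tags of at least 20 TPM that fell. The median log2 fold change over the members was -1.14, and it was below 0 for 650. DESeq2 called 267 members lower, against 5163 of all 48834 tags tested. Scaled by total clean tags, edgeR called 369 members lower and none higher, against 9441 and 1038 of all tags. That scaling moves the median of all tags from -0.04 to -0.89, and the share of higher tags among all tags called from 42.7% to 9.91%. When any one of the LT libraries of 63, 77 or 91 dpc or 28 dpn was left out, no tag was called by edgeR, while between 249 and 275 members had an unadjusted p under 0.05, beside 9798 to 14300 of all tags.

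Dp and Dq were the members with the smallest p in this comparison. Dp stood at 92.1, 143 and 59.4 TPM in LT from 63 to 91 dpc, at 0.453 TPM at 2 dpn and at 0 in every later LT library. Its counts after birth, 2 against 1224, give a ratio of 0.153% of the fetal level (exact 95% interval 0.0185 to 0.553). Dq stood at 170, 136 and 77.6 TPM, then at 0.679 TPM at 2 dpn and 0 from 28 dpn, a ratio of 0.188% (0.0387 to 0.550) from 3 counts against 1492. In LR Dp was at 1.93 TPM and Dq at 0 at 2 dpn, so both tags were nearly absent from either breed after birth. Dm fell by 3.997 ± 0.63 on the log2 scale (edgeR adjusted p = 0.0244), from 109 TPM at 91 dpc to 3.85 TPM at 2 dpn, and Dj by 3.54 ± 0.76 (edgeR adjusted p = 0.0246), from 982 to 83.6 TPM. Dk, with a log2 fold change of -1.58 ± 0.85 and an adjusted p of 0.232 from edgeR, and Dl, with 0.85 ± 0.75 and an adjusted p of 0.470, did not pass.

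One member was called higher after birth in LT, and it was picked out after its values were seen. Dw stood at 39.8, 71.6 and 99.96 TPM in LT from 63 to 91 dpc and at 103.05, 164 and 568 TPM from 2 to 90 dpn, a log2 fold change of 2.95 ± 0.82 (edgeR adjusted p = 0.0497). DESeq2 called 9 members higher, against 4353 of all 48834 tags tested. Dw did not pass when edgeR was scaled by DESeq2 size factors (adjusted p = 0.0515) or by total clean tags (0.0813). Nor did it pass without the LT library of 63, 77 or 91 dpc or 28 dpn (edgeR adjusted p from 0.0953 to 0.234). In LR it was at 67.1 TPM at 35 dpc, 14.1 at 49 dpc, 13.2, 18.7 and 39.9 TPM from 63 to 91 dpc and 164, 323 and 460 TPM from 2 to 90 dpn. It was thus low in LR from 49 to 77 dpc, rose by 91 dpc, and was higher in both breeds from 2 to 90 dpn. At 120 and 180 dpn it was at 6.41 and 3.59 TPM in LR.
Dw: CATGtctttggagagtcagat

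In LR the same edgeR comparison gave both directions. Of the 757 members, 703 passed the filter, 185 (24.4%) were higher after birth and 57 (7.53%) lower. Of all 33473 tags tested 16.4% and 16.8% were, and of those of at least 20 TPM 12.1% and 24.5%. Scaling by total clean tags reversed the order of the members, to 89 higher and 130 lower, against 3009 and 11167 of all tags. That scaling moves the median of all tags in LR from -0.08 to -0.80, and the share of higher tags among those called from 49.3% to 21.2%. Without the LR library of 63 dpc, 79 members were called higher, without 77 dpc 68, and without 91 dpc 108. Of all 36765, 36457 and 37110 tags tested, 2796, 2889 and 4925 were called higher. Without 63 dpc 20 members were called lower, against 2542 of all tags, and without 2 dpn 108, against 7801. The difference between the breeds in the change across birth was tested in 1 fit over the 12 libraries, chosen after seeing the data. By edgeR's adjusted p none of 57669 tags passed, the smallest adjusted p being 0.0933, while 381 of 754 members and 12921 of all tags had an unadjusted p under 0.05. The comparisons of breeds and of birth share their fetal libraries and are not independent.

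**Figure D4:**
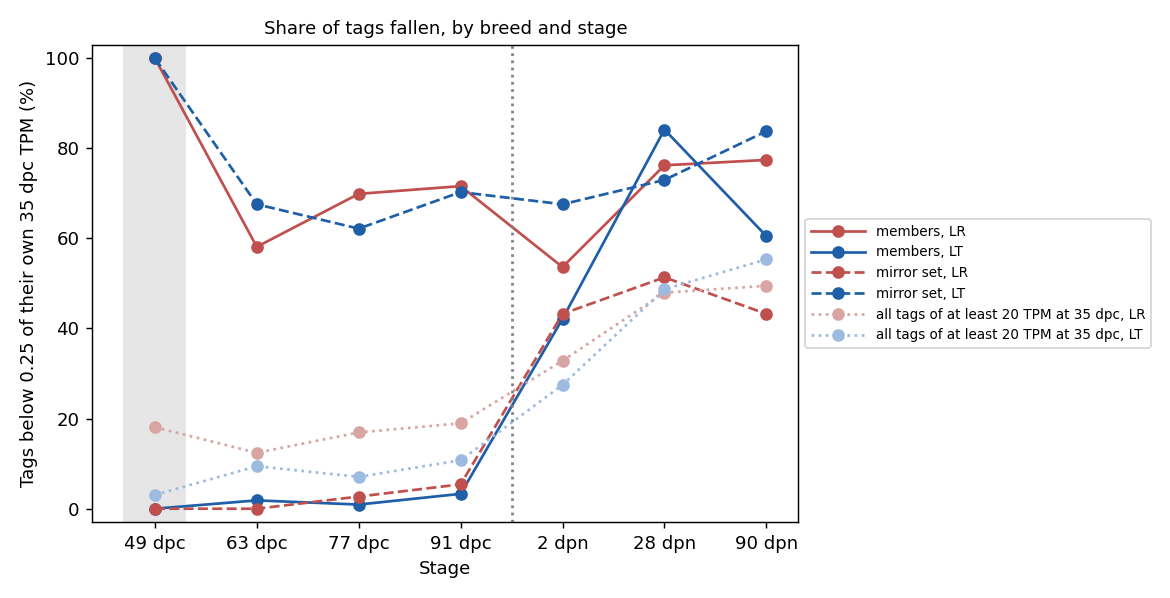
Percent of tags below 0.25 of their own 35 dpc level in each breed, by stage, for the members (solid), the mirror set (dashed) and all tags of at least 20 TPM at 35 dpc (dotted), LR in red and LT in blue. The members in LT stay between 0.925% and 3.30% from 63 to 91 dpc and reach 42.1% at 2 dpn and 84.1% at 28 dpn; the shaded stage chose the tags and the dotted line marks birth.

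The mirror set, 37 tags against 757, showed the opposite course. Its median was 58.9, 8.07, 12.6, 12.8 and 13.3 TPM in LT from 35 to 91 dpc and 26.0, 40.1, 33.6, 36.0 and 32.1 TPM in LR. In LR, 8.11% of the 37 tags were below 0.25 of their 35 dpc level at any of 63, 77 or 91 dpc, against 22.5% of all tags of at least 20 TPM and 2.03% of the 2754 that were also above 0.67 in LR at 49 dpc. At 63 to 91 dpc edgeR called 29 of the 37 lower in LT and none higher, against 18.8% of all tags tested and 31.7% of the tested tags of at least 20 TPM that were lower, and without the 77 dpc libraries it called none. Of the 5495 tags, 994 (18.1%) were below 0.25 at 49 dpc in LR, 169 (3.08%) in LT, and 74 in both breeds. These counts include the members and the mirror tags and come from the same libraries, so they are no separate background for the sizes of the sets. With 63 dpc in place of 49 dpc the mirror set held 195 tags against 297, with 77 dpc 91 against 407, and with 91 dpc 122 against 362.

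Among the mirror tags Mb stood at 207, 231 and 284 TPM in LR from 63 to 91 dpc and at 50.8, 73.3 and 74.4 TPM in LT, a log2 fold change of -2.03 ± 0.22 (edgeR adjusted p = 0.00382). At 2 dpn it was at 147 TPM in LR and 251 TPM in LT, so the order of the breeds was the reverse. Mc stood at 145, 237 and 192 TPM in LR and at 2.29, 2.78 and 0.752 TPM in LT, a log2 fold change of -6.88 ± 0.44 (edgeR adjusted p = 0.00382). It was at 40.8, 57.1 and 53.3 TPM in LR and at 2.94, 2.15 and 1.77 TPM in LT from 2 to 90 dpn, where it was again called lower in LT (log2 fold change -4.45 ± 0.58, edgeR adjusted p = 0.0156). Mc holds a run of T after its CATG.

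Some members have a counterpart that differs by 1 base, which can hold the reads that the member seems to lose. Of the 757 members, 17 (2.25%) had a one-base neighbour in LR at 49 dpc with at least 0.25 of the member's LR level at 35 dpc, against 2.88% of all tags of at least 20 TPM. In the mirror set 6 of 37 had one in LT, against 3.24%. After the counts of all one-base neighbours were added, 735 members and 30 mirror tags still met the rule. The pairs below are among those with the most abundant neighbours, and the pairs of Dv and Me, which were picked after their values were seen; capitals mark the base that differs. Positions are counted from 1 at the first base of CATG, and each substitution gives the member's base first.
Ds: catgaacacttgatgcCgttt
Ds neighbour: catgaacacttgatgcTgttt
Dt: catgtggaAgttcccaggcta
Dt neighbour: catgtggaGgttcccaggcta
Du: catgtggaggttcccaggcCa
Du neighbour: catgtggaggttcccaggcTa
Dv: catgggaagaataactCgaat
Dv neighbour: catgggaagaataactTgaat
Ma: catggagaaaacAaagacaag
Ma neighbour: catggagaaaacGaagacaag
Md: catgaccaaaaaccaaCagtg
Md neighbour: catgaccaaaaaccaaAagtg
Me: catgcacgctccCgggaaggg
Me neighbour: catgcacgctccGgggaaggg

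In the pair of Ds (C17T) the neighbour was found mainly in LR. The neighbour stood at 108, 457, 725, 277 and 662 TPM in LR from 35 to 91 dpc and at no more than 1.69 TPM in fetal LT. Ds itself stood at 1750, 298, 403, 747 and 353 TPM in LR and at 1521, 1409, 1202, 1194 and 1273 TPM in LT. The 2 tags together were at 0.406 of LR 35 dpc at 49 dpc, outside the rule, and at 0.927 in LT. In the pair of Dv (C17T) the neighbour also rose in LR between 35 and 49 dpc. Dv was at 35.0, 0, 42.9, 0 and 0 TPM in LR while its neighbour was at 37.1, 78.8, 40.6, 88.8 and 99.2 TPM. The sum in LR at 49 dpc was 1.09 of that at 35 dpc. In fetal LT the Dv neighbour was at 19.96, 0, 1.53, 0 and 7.70 TPM, so it was not confined to LR. Dv was also the 1 member called at 2 to 90 dpn, where it was at 0, 0.688 and 0.927 TPM in LR and at 74.7, 98.3 and 100.2 TPM in LT (edgeR adjusted p = 0.0151). With one-base neighbours merged, its fetal log2 fold change of 4.21 became -0.70.

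The neighbour of Dt and Du was more abundant than either member in fetal muscle of both breeds. Dt (A9G) and Du (C20T) share 1 neighbour, at 422, 108, 150, 141 and 125 TPM in LR and 248, 385, 315, 306 and 320 TPM in LT, and so are not independent members. In the mirror set the neighbour of Me (C13G) was present in both breeds, at 103.2 TPM in LR and 86.4 TPM in LT at 49 dpc, while Me was at 34.0 to 102 TPM in fetal LR, at 50.8 TPM in LT at 35 dpc and at 0 in every later LT library. Me was the other mirror tag called at 2 to 90 dpn, lower in LT (edgeR adjusted p = 0.0164). Ma (A13G) was at 23.0 TPM in LT at 35 dpc, 1.18 at 49 dpc and 64.2, 70.1 and 55.6 TPM from 63 to 91 dpc, so its fall was seen in 1 library alone. The neighbour of Md (C17A) stood at 5822 TPM in LT at 49 dpc and Md at 3.74 TPM. Whether these pairs are alleles, sequencing errors or copies of a transcript was not tested.

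What the members share in sequence was examined next. Their mean GC content over the 17 bases after CATG was 41.0% ± 14.1 (SD, n = 757), against 40.4% ± 15.5 over the tags of at least 20 TPM. The polyadenylation hexamers AATAAA and ATTAAA, which lie just before the end of a transcript, were searched on the strand of the tag only, since tags are read in the direction of the transcript. They were found in 6 members, 0.793% (95% Wilson interval 0.364 to 1.72), against 3.37% (2.92 to 3.88) of all tags of at least 20 TPM and 2.70% of the mirror set. Put the other way, 3.24% of the 185 tags with a hexamer were members and 14.1% of the 5310 without. The share of tags that were members also varied with the last 2 bases, from 4.52% of the 199 tags that end in GC and 6.38% of the 188 that end in GT to 18.6% of the 635 that end in AT and 16.7% of the 1084 that end in TT. By the 2 bases after CATG it ranged from 7.05% for CA to 20.2% for AT.

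The same features moved between libraries. The hexamers were in 3.14% of all clean tags in LR at 35 dpc and in 4.20% to 4.79% from 49 to 91 dpc, and in 2.70% to 3.17% in fetal LT, so LR at 35 dpc stood nearer to LT than to the later LR libraries. Tags with a further CATG were 3.40% of the clean tags in LR at 35 dpc, 2.62% to 2.87% in LR from 49 to 91 dpc and 3.19% to 3.80% in fetal LT. Among tags of at least 20 TPM, those that end in GT had a median 49 to 35 dpc ratio of 1.51 in LR and 0.771 in LT, and those that end in AT 0.523 and 0.810. The median LT ratio of 63 to 35 dpc was 1.13 for ends in GT and 0.523 for ends in AT. Tags that end in GT were 3.51% and 6.32% of clean tags in LR at 35 and 49 dpc. In LT they were 3.42%, 3.47% and 6.13% at 35, 49 and 63 dpc, so LT at 63 dpc also shifted. In LR at 120 and 180 dpn, where most members were listed at 0, the hexamers were in 16.3% and 15.5% of clean tags and further CATG sites in 0.116% and 0.224%. Over the tags of at least 20 TPM, the median log2 of LT over LR at 63 to 91 dpc was -0.646 with a hexamer and -0.127 without. The part of these shifts in the choice of the members, in their stage of fall in LT and in their breed difference at 63 to 91 dpc was not tested. Breed and stage cannot be told apart from library, with 1 library for each breed and stage.

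**Figure D5:**
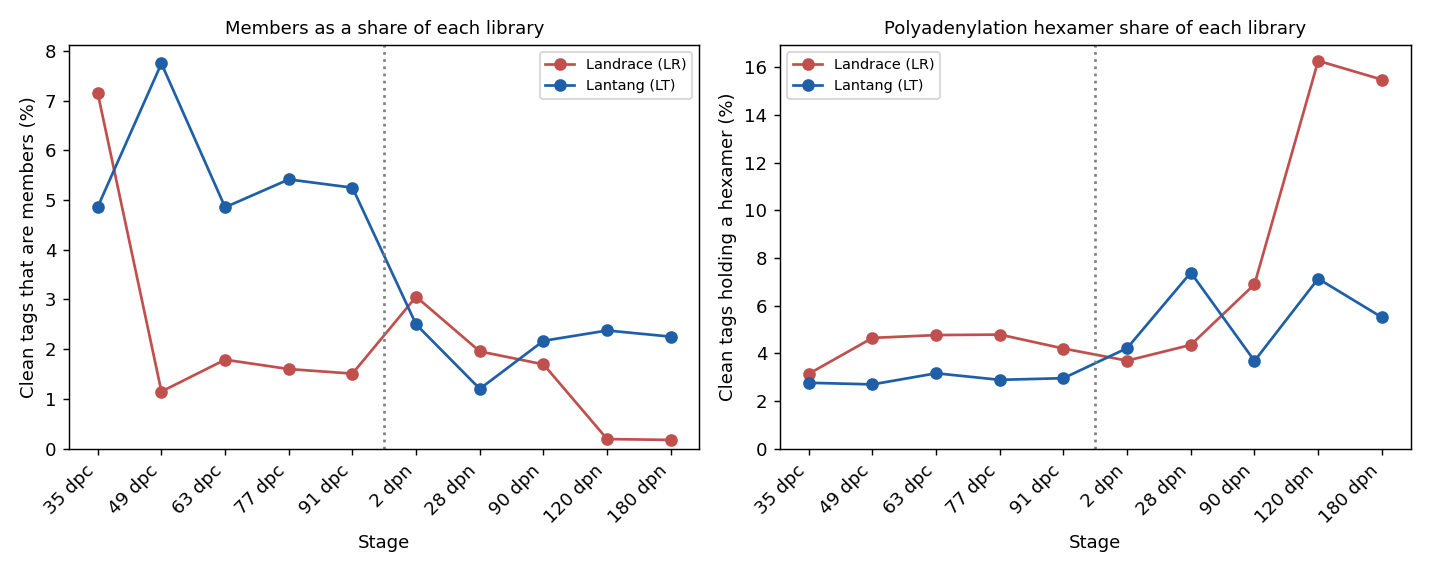
Percent of all clean tags that are members (left) and that hold AATAAA or ATTAAA, the polyadenylation hexamers (right), in each library by stage, LR in red and LT in blue. The members fall from 7.15% to 1.15% of LR tags between 35 and 49 dpc while the hexamer share rises from 3.14% to 4.65%, and in LT the hexamer share stays between 2.70% and 3.17% before birth.

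The thresholds cut through a continuous range. The member with the lowest LR level at 35 dpc was at 20.3 TPM and the tag next below the limit at 19.8 TPM, and for LT these values were 20.3 and 19.96 TPM. The LR ratio of 49 to 35 dpc was 0.2499 for the member nearest the limit and 0.251 for the tag just outside it. The LT ratio was 0.671 just inside and 0.665 just outside. With a minimum of 10 TPM the rule found 1775 tags and with 40 TPM 272. With limits of 0.33 and 0.5 in place of 0.25 and 0.67 it found 1181, and with the stricter of the planned pairs of limits 249.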

How the data were processed

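Per the labels and the study's methods, polyadenylated RNA was converted to cDNA on beads, cut with NlaIII, tagged with MmeI and sequenced on an Illumina Genome Analyzer. The authors deposited, for each library, each clean tag with its copy number, a count of reads, and its TPM, that count scaled to 1000000 clean tags. The TPM were recomputed from the counts in 3132188 rows and none differed beyond rounding. The submitters' processing notes name Bowtie 0.12.3; no alignment was used here. The deposited counts list no tag under 2 copies, and PCR copies were not separated from molecules.

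The members and lists were chosen with earlier results of these data known. Samples were grouped by the breed and stage in their labels. Count tests were run on all tags with edgeR 4.0.16 (R 4.3.3; filterByExpr, TMM, glmQLFit, glmQLFTest) and Benjamini-Hochberg adjustment at 0.05, with stages as replicates and, between breeds, as a block. The SE is the log2 fold change divided by the square root of the quasi-likelihood F. Scripts were tested on simulated data. DESeq2 1.42.0, other scalings, no filter, no block, left-out stages and merged one-base neighbours were alternatives. Merging assigned each tag to a more abundant tag 1 base away.

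Named tags were the 3 with the highest level at 49 dpc in each class of LT fall, those with the smallest p (3 for the fetal breed comparison, 2 for LT across birth), the 4 members and 2 mirror tags with the most abundant one-base neighbours, the 3 mirror tags highest in LR at 49 dpc, and the tags nearest each threshold. Dv, Dw and Me were added after their values were seen. No transcript sequence was available, so the gene lists and cell type markers planned for the tags were not used. Some tags this rule names are not reported here.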

Additional observations from a re-analysis of the deposited data

How the results depend on the processing

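Libraries are single pools, so each test rests on 3 stages a group. No paired analysis was possible because each group holds 1 library, so that groups share fewer than 2 replicate numbers; the breed fits pair the libraries by stage instead, and without stage as a block 606 members were called higher in fetal LT, against 607. Over the settings that left out no stage, 488 to 644 members were called higher in fetal LT and at most 1 lower. Of all tags, 11134 of 454289 were called higher without a filter, which gave 488 members. By total clean tags, which gave 644, it was 14133 of 52931. With a stage left out, 0 (without 77 dpc) to 571 members and 0 to 30 mirror tags were called, and the cause was not tested. Of all tags, 0 to 11939 were then called higher and 0 to 10994 lower. At 2 to 90 dpn, 1 member was called, 3 without a filter, 4 by DESeq2, 0 with neighbours merged, 0 over all 5 postnatal stages, and 0 (without 28 dpn) to 4 (without 90 dpn) with a stage left out; of all tags, 441 were called, 781 by DESeq2 and 140 with neighbours merged. The mean of the stages' median log2 values of LT over LR was -0.09 at 2 to 90 dpn and 3.21 at 120 and 180 dpn. Across birth, 167 members fell in LT, 369 by total clean tags, 267 by DESeq2, and 0 to 281 with a library left out. Of all tags, 3004, 9441, 5163 and 0 to 7366 fell at these settings. In LR 185 were higher and 57 lower, 89 and 130 by total clean tags, 74 and 99 without a filter, and 68 to 174 and 20 to 108 with a library left out. Of all tags, these counts were 5481 and 5636, 3009 and 11167, 7243 and 10370, and 2796 to 6609 and 2542 to 7801. The rule gave 757 members and 37 mirror tags, 1775 and 123 from 10 TPM, 272 and 9 from 40 TPM, 249 and 11 with stricter limits, 1181 and 182 with looser limits, and 258 and 18 by TMM. With 63, 77 or 91 dpc in place of 49 dpc, an alternative chosen after seeing the data, it gave 297, 407 and 362 members and 195, 91 and 122 mirror tags. With a fold of 0.5, 137 members were below it in LT at 63 dpc, against 14. Signs turned for Dv (-0.70, neighbours merged) in the fetal fit and for Dl (-0.046) and Ds (-0.16) across birth by total clean tags. With 1 stage left out, the log2 fold change ranged from -0.033 to 1.12 for Db and from -0.84 to 4.06 for Dd in the fetal fit, and from -1.42 to 1.44 for Dd across birth.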
